A study of Mus musculus with 13 samples.

Results

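Hyaluronan genes are described here as a set of 9 among the 20270 genes listed for each mouse lung. The members are defined by their role in hyaluronan metabolism: the synthases Has1, Has2 and Has3, the degradation genes Cemip, Cemip2, Hyal1 and Hyal2, the receptor Cd44 and the binding protein Tnfaip6. All 9 were listed and all 9 passed the filter on low counts. RNA of the lower right lung lobe was sequenced from 13 mice to learn how deletion of CB1R, the cannabinoid receptor encoded by Cnr1, alters the lung response to bleomycin, a drug that injures the lung and leads to fibrosis. The 4 control mice were wildtype (WT) C57BL/6J males aged 13 weeks that received sterile saline. The 5 WT bleomycin mice had the same strain, sex and age and received bleomycin once by the oropharyngeal route, at 1 U per kg. The 4 CB1R KO bleomycin mice were global Cnr1-/- on a C57Bl/6J background and received the same dose, and their age was not given in the sources used here. The study's methods state male sex for the purchased C57BL/6J mice and no sex for the CB1R KO mice. Lungs were taken at 14 days. Saline-treated CB1R KO mice were not analysed here, so an effect of genotype alone cannot be told apart from an effect on the bleomycin response.

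Hyaluronan is a long, unbranched sugar polymer of the extracellular matrix. It is made at the plasma membrane by the synthases from UDP-glucuronic acid and UDP-N-acetylglucosamine and extruded as it grows. Long chains hold water and are cross-linked by proteins such as the TNFAIP6 product TSG-6, whereas shorter fragments made by CEMIP and the hyaluronidases are taken up through receptors and degraded in lysosomes. In the injured lung, hyaluronan accumulates in the airspaces and interstitium, and fibroblasts are a main source of it. These are measurements of RNA, and neither hyaluronan nor its chain length was measured.

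Promoter sequence is shown for the 3 members with a promoter entry that rose most and for the 1 that fell, so that the genes that moved can be compared at the DNA level. The RefSeq promoter table (build GRCm38.p6) held 6 of the 9 members, and Has2, Has3 and Cemip2 had no entry in it. Each line gives the 250 bases before the start of the gene, 5′ to 3′ on the strand of the gene. The windows are chr17:17855189-17855438 on the minus strand for Has1, chr7:84086506-84086755 on the minus strand for Cemip, chr2:52037863-52038112 on the plus strand for Tnfaip6 and chr9:107576700-107576949 on the plus strand for Hyal1. Capitals mark matches on either strand to the TATA box TATAAA, the AP-1 site TGANTCA, the cAMP response element TGACGTCA, the CCAAT box CCAAT and the GC box GGGCGG.
Has1: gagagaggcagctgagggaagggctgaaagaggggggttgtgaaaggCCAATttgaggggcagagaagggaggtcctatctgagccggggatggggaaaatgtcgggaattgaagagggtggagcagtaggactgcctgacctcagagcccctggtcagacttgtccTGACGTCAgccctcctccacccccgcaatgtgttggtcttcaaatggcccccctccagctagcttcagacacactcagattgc
Cemip: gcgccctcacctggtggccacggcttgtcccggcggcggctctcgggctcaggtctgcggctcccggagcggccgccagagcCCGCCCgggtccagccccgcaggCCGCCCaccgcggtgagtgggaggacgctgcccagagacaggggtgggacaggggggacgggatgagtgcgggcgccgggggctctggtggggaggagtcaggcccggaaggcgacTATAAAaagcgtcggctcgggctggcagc
Tnfaip6: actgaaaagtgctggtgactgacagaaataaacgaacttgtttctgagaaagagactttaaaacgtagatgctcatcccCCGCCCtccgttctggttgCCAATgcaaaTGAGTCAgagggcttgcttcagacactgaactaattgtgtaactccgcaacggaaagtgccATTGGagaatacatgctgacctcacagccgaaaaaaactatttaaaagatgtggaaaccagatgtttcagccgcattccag
Hyal1: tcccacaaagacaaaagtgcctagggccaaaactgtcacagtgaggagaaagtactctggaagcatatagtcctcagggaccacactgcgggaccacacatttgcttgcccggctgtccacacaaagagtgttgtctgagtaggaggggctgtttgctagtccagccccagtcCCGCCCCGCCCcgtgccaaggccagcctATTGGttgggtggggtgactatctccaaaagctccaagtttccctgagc
Cemip held a TATA box at -29 to -24 and a pair of GC boxes, Has1 held a cAMP response element at -83 to -76 and a CCAAT box, and Tnfaip6 held an AP-1 site at -142 to -136, a pair of CCAAT boxes and 1 GC box. Hyal1 held a CCAAT box and a pair of overlapping GC boxes. Among 32851 promoter windows of the same length, a match was present in 12.4% for the TATA box, 6.75% for AP-1, 1.55% for the cAMP response element, 33.8% for CCAAT and 32.7% for the GC box. No motif was held by all 4 windows, and the matches are a description of the letters only.

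Of the 13 libraries, 12 had a total of 14615904 to 16662580 estimated counts. CB1R KO replicate 11 was 3.33 times deeper than their median, at 53463884. Cnr1 was at 3.46 to 6.97 CPM, a count scaled to the library total, in WT bleomycin libraries and at 2.47 to 5.63 CPM in the libraries labelled CB1R KO. The position of these reads within the gene is not given by the tables, so these values do not check the genotype. The labels of control replicate 26 and of WT bleomycin replicates 4-B2 and 7 are written in capitals and the other 10 in lower case, all CB1R KO libraries among them, so members that moved are also given among the 10 libraries with lower-case labels. As to cell types, markers of monocyte-derived and interstitial macrophages rose between control and WT bleomycin lungs for 8 of 8 genes, from a summed level of 292 to 388 TPM to one of 1370 to 1600 TPM. Summed fibroblast markers were at 576 to 707 TPM in control, 520 to 686 in WT bleomycin and 628 to 774 in CB1R KO bleomycin lungs. Summed mesothelial markers were at 165 to 204, 142 to 202 and 140 to 180 TPM. Single markers did move between control and WT bleomycin lungs by the edgeR test below. Of 8 fibroblast markers, 3 were higher and 2 lower, and of 8 mesothelial markers, 1 was higher and 4 lower. Of all genes tested, 25.0% were higher and 23.9% lower. None of the 24 markers of these 3 lists was at 0 in any library, and their part in the results was not tested. Type II cell markers, which define lung tissue, were at 25100 TPM or more in every library. In whole tissue, fewer cells of a type and less RNA per cell cannot be told apart.

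After bleomycin, WT lungs gained RNA for Has1 and Has2, Cemip, Cd44 and Tnfaip6 and lost RNA for Hyal1. Has2 and Cemip, which had only 4 to 16.36 estimated counts per control library, rose most, by 30.8-fold and 52.7-fold. Has3, Cemip2 and Hyal2 did not pass the test. In the quasi-likelihood test of edgeR, at a Benjamini-Hochberg adjusted p of 0.05, 5 of 9 members were higher and 1 of 9 lower, where 25.0% of the 15315 genes tested were higher and 23.9% lower. The median log2 fold change of the 9 members was 0.86, beside -0.01 over all genes tested. In CB1R KO bleomycin lungs the same 6 members were called against control in the same directions, 5 of 9 higher and 1 of 9 lower, beside 19.0% and 16.3% of all genes. Both comparisons use the same 4 control libraries. In every one of these 6 genes, all libraries of either bleomycin group lay outside the range of the 4 control libraries. These 6 were picked by their calls, and the share of all genes that separate in this way was not computed. The separation is therefore no added support for the calls.

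**Figure D1:**
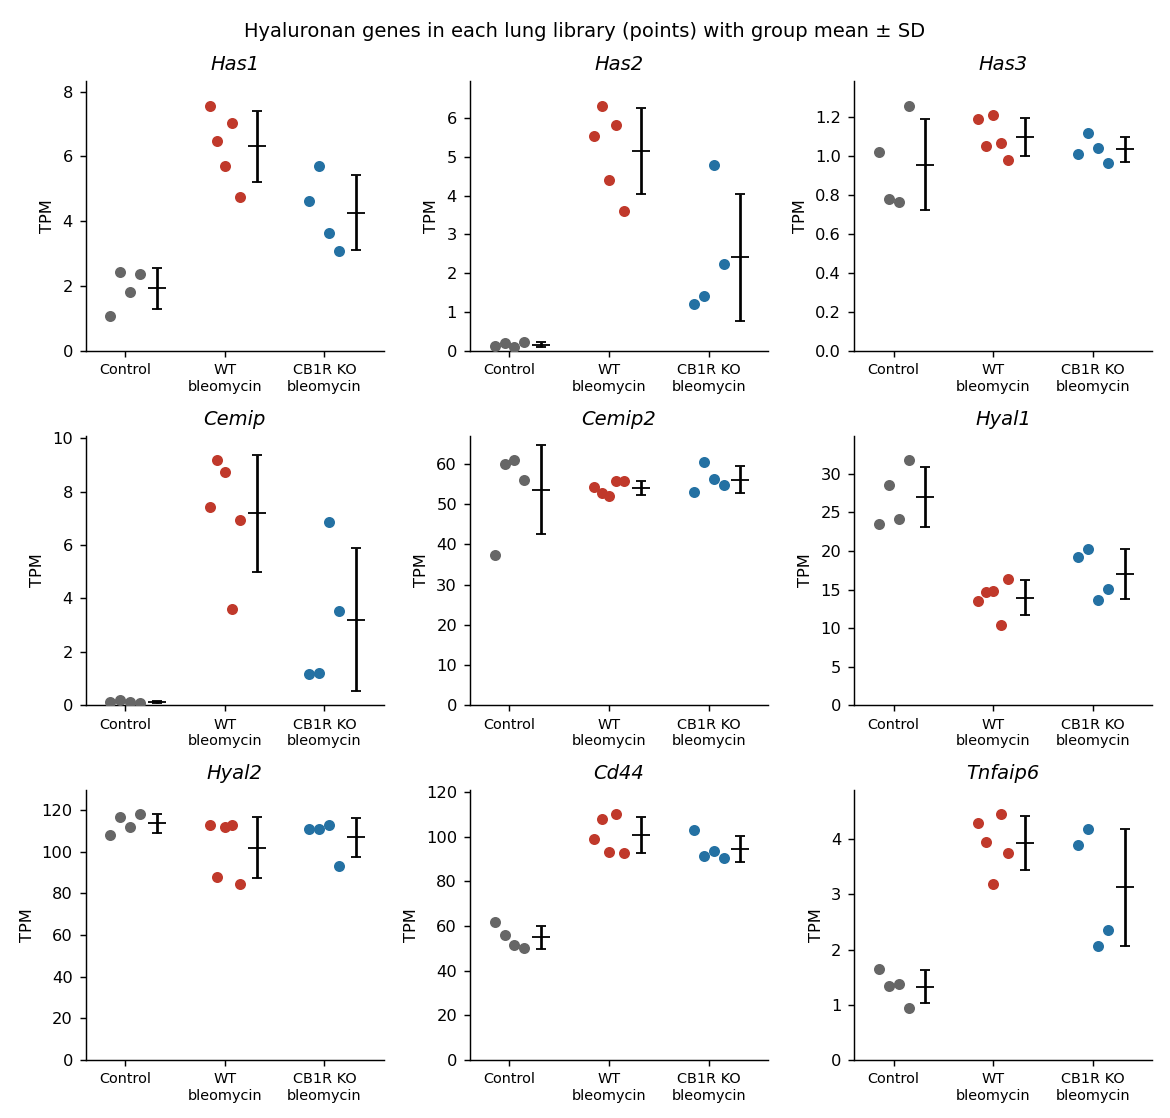
TPM (vertical axis, from 0) of the 9 hyaluronan genes in each of the 13 lung libraries, by group (horizontal axis); points are single mice and the bar beside them is the mean ± SD. Control and WT bleomycin libraries do not overlap for Has1, Has2, Cemip, Hyal1, Cd44 and Tnfaip6, and CB1R KO libraries are widely spread for Has2 and Cemip.

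The synthases are membrane enzymes that differ in activity and in the length of chain they make. TPM, which is scaled for transcript length and library total, is listed below in the order control replicates 3, 21, 24 and 26, WT bleomycin replicates 4, 2, 5, 4-B2 and 7, and CB1R KO bleomycin replicates 8, 9, 10 and 11.

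Has2, the synthase required for heart formation in the embryo and the main one in many fibroblasts, was at 0.127, 0.211, 0.0885 and 0.22 TPM in control lungs, or 4 to 10.19 estimated counts. It was at 5.54, 6.32, 4.41, 5.83 and 3.61 TPM in WT bleomycin lungs and at 1.21, 1.4, 4.78 and 2.23 TPM in CB1R KO bleomycin lungs. All bleomycin libraries were above all controls, and among the CB1R KO libraries replicate 10 lay inside the WT range while the other 3 lay below it. The log2 fold change against control was 4.94 (SE 0.46, n = 5 and 4, adjusted p = 1.24e-06 in the edgeR fit) in WT and 3.81 (SE 0.47, n = 4 and 4, adjusted p = 4.1e-05 in the edgeR fit) in CB1R KO lungs. Among libraries with lower-case labels these were 5.19 and 4.00. Has2 shares 3.0% of its stretches of 31 bases with the antisense gene Has2os, and as no strand setting was given, reads from there could belong to either gene. On a log2(TPM + 1) scale, which understates the change of genes this low, they were 2.38 and 1.44.

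Has1, which makes hyaluronan at a lower rate than the other synthases, was at 1.08, 2.42, 1.82 and 2.38 TPM in control, 7.57, 6.48, 5.7, 7.03 and 4.76 TPM in WT bleomycin and 4.61, 5.71, 3.65 and 3.09 TPM in CB1R KO bleomycin lungs. Every bleomycin library was above every control, and CB1R KO replicates 8, 10 and 11 were below every WT bleomycin library. Relative to control, Has1 rose 3.18-fold in WT bleomycin lungs (log2 fold change 1.67, SE 0.25, adjusted p = 8.01e-05 in the edgeR fit). In CB1R KO lungs it was 2.07-fold higher than in control (log2 fold change 1.05, SE 0.26, adjusted p = 0.00607 in the edgeR fit). Among libraries with lower-case labels the log2 fold changes were 1.84 and 1.19.

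Has3, a synthase of shorter chains, ranged from 0.765 to 1.26 TPM in control, 0.979 to 1.21 TPM in WT bleomycin and 0.967 to 1.12 TPM in CB1R KO bleomycin lungs. The groups overlapped. Its log2 fold change between WT bleomycin and control was 0.18 (95% interval -0.20 to 0.55), and between CB1R KO bleomycin and control 0.08 (-0.31 to 0.47). Has3 overlaps Chtf8 on the opposite strand and shares 5.07% of its stretches of 31 bases with it in the GENCODE annotation of another build, and the strand setting of the quantification was not given, so reads of the pair could be mixed.

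Has2 took a larger share of the synthase RNA in bleomycin than in control lungs, without overlap between the libraries. The summed TPM of the 3 genes was 3.04 ± 0.731 in control (SD, n = 4), 12.5 ± 2.15 in WT bleomycin (SD, n = 5) and 7.71 ± 1.43 in CB1R KO bleomycin lungs (SD, n = 4). Has2 made up 3.31 to 6.2% of that sum in control and 38.6 to 45.6% in WT bleomycin lungs. In CB1R KO replicates 8, 9, 10 and 11 its share was 17.7, 17.0, 50.4 and 35.4%. Has1 held 48.4 to 71.0% in control, 46.8 to 52.9% in WT bleomycin and 38.6 to 69.4% in CB1R KO bleomycin lungs. Has3 held 22.8 to 45.9% in control, 7.6 to 10.7% in WT bleomycin and 11.0 to 15.4% in CB1R KO bleomycin lungs.

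**Figure D2:**
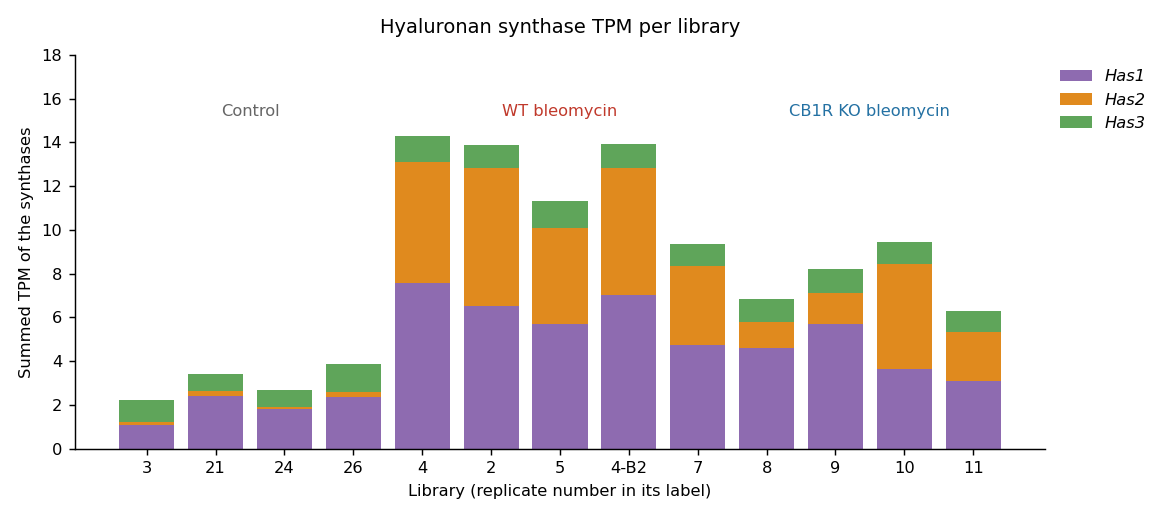
Stacked bars of Has1, Has2 and Has3 TPM (vertical axis, from 0) in each lung library (horizontal axis, replicate number in the label), grouped by treatment and genotype. Has2 is a thin band in control bars and 38.6 to 45.6% of each WT bleomycin bar, and among CB1R KO bars it is widest in replicate 10.

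Cemip encodes a secreted hyaluronan-binding protein that fibroblasts need to cut hyaluronan at the cell surface, and Cemip2 encodes a related membrane protein. Cemip was at 0.12, 0.198, 0.114 and 0.0928 TPM in control lungs. It was at 7.44, 9.18, 8.73, 3.62 and 6.94 TPM in WT bleomycin and at 1.18, 1.21, 6.85 and 3.54 TPM in CB1R KO bleomycin lungs. All bleomycin libraries were above all controls, WT replicate 4-B2 stood lower than the other WT libraries, and CB1R KO replicates 8 and 9 were lowest of the bleomycin libraries. The log2 fold change against control was 5.72 in WT (SE 0.62, adjusted p = 4.61e-06 in the edgeR fit) and 4.52 in CB1R KO lungs (SE 0.64, adjusted p = 0.000106 in the edgeR fit). Among libraries with lower-case labels these were 5.81 and 4.39, and on the log2(TPM + 1) scale 2.80 and 1.68.

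Cemip2 was far more abundant than Cemip in every group, at 37.5, 60.1, 61.0 and 56.0 TPM in control, 52.0 to 55.8 TPM in WT bleomycin and 53.0 to 60.6 TPM in CB1R KO bleomycin lungs. Control replicate 3 was the lowest of all libraries and the groups overlapped. Its log2 fold change between WT bleomycin and control was -0.03 (95% interval -0.28 to 0.23) and did not pass the test, and the sign turned under some of the alternatives. Without control replicate 3 it was -0.17 with an adjusted p of 0.0463 in the edgeR fit. Of the summed TPM of Cemip and Cemip2, Cemip was 0.165 to 0.329% in control, 6.1 to 14.8% in WT bleomycin and 1.96 to 10.8% in CB1R KO bleomycin lungs.

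Hyal1 and Hyal2 encode hyaluronidases, the first acting in lysosomes and the second anchored to the cell surface. Hyal1 was at 23.5, 28.5, 24.1 and 31.8 TPM in control, 13.5, 14.7, 14.8, 10.4 and 16.4 TPM in WT bleomycin and 19.2, 20.3, 13.6 and 15.1 TPM in CB1R KO bleomycin lungs. Every bleomycin library was below every control, and CB1R KO replicates 8 and 9 were above every WT bleomycin library. Hyal1 fell by 1.02 on the log2 scale in WT bleomycin lungs (SE 0.16, adjusted p = 0.000103 in the edgeR fit) and by 0.79 in CB1R KO bleomycin lungs (SE 0.17, adjusted p = 0.00227 in the edgeR fit). Among libraries with lower-case labels the log2 fold changes were -0.89 and -0.68. Hyal1 shares 50.5% of its stretches of 31 bases with Hyal3 and Naa80, which overlap it on the same strand, so the division of reads among them is uncertain. Hyal3 was at 1.07 to 1.35 TPM in control and 0.352 to 1.47 TPM in WT bleomycin lungs. Endothelial markers, given because they moved the same way as Hyal1, fell in WT bleomycin lungs for 8 of 8 genes, from a summed 2670 to 3090 TPM to 1720 to 2000 TPM. They were at 1940 to 2290 TPM in CB1R KO bleomycin lungs, with no marker at 0. This direction was not particular to endothelium, as 8 of 8 cardiac muscle markers and 6 of 8 type II cell markers also fell in WT bleomycin lungs. The part of these cell types in the Hyal1 result was not tested.

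Hyal2 had the highest mean TPM of the 9 genes in each group, although Cd44 was above it in WT bleomycin replicates 2 and 7. It was at 108 to 118 TPM in control, 84.4 to 113 TPM in WT bleomycin and 93.2 to 113 TPM in CB1R KO bleomycin lungs. WT bleomycin replicates 2 and 7, at 88.0 and 84.4 TPM, were the lowest. The log2 fold change between WT bleomycin and control was -0.16 (95% interval -0.32 to -0.01, adjusted p = 0.0766 in the edgeR fit). Without control replicate 3 the adjusted p was 0.048, and without WT bleomycin replicate 5 it was 0.0457, each with a log2 fold change of -0.20.

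Cd44 encodes the main hyaluronan receptor of leukocytes and fibroblasts. It was at 61.7, 56.0, 51.5 and 50.2 TPM in control, 99.2, 108, 93.1, 110 and 92.8 TPM in WT bleomycin and 103, 91.3, 93.5 and 90.5 TPM in CB1R KO bleomycin lungs. Both bleomycin groups were above all controls and overlapped each other. Relative to control, Cd44 rose 1.82-fold in WT bleomycin lungs (log2 fold change 0.86, SE 0.08, adjusted p = 1.24e-06 in the edgeR fit) and 1.65-fold in CB1R KO bleomycin lungs (log2 fold change 0.72, SE 0.08, adjusted p = 2.21e-05 in the edgeR fit). The macrophage markers above rose in the same libraries, and their part in the Cd44 result was not tested.

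Tnfaip6 encodes TSG-6, a secreted protein that transfers heavy chains of inter-alpha-inhibitor onto hyaluronan. It was at 1.65, 1.34, 1.38 and 0.931 TPM in control, 4.3, 3.95, 3.19, 4.45 and 3.76 TPM in WT bleomycin and 3.9, 4.18, 2.07 and 2.36 TPM in CB1R KO bleomycin lungs. The bleomycin groups were again above all controls, with CB1R KO replicates 10 and 11 below the WT range and replicates 8 and 9 inside it. The log2 fold change against control was 1.55 in WT (SE 0.24, adjusted p = 0.000122 in the edgeR fit) and 1.15 in CB1R KO lungs (SE 0.25, adjusted p = 0.00292 in the edgeR fit). Among libraries with lower-case labels Cd44 changed by 0.77 and 0.70 and Tnfaip6 by 1.36 and 1.03 on the log2 scale.

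**Figure D3:**
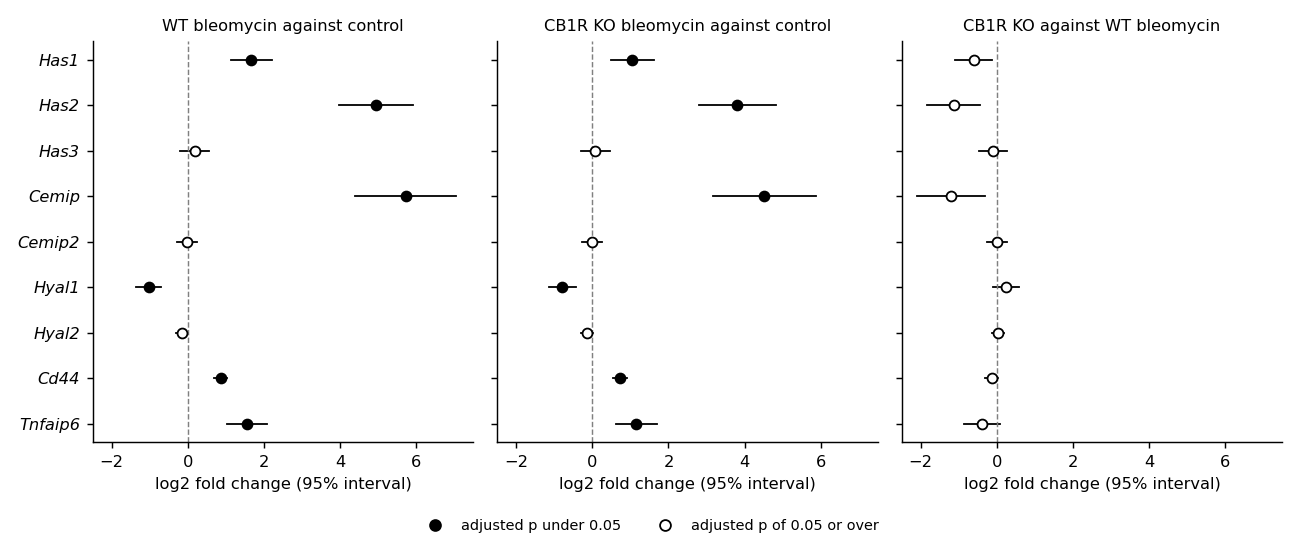
Log2 fold change (horizontal axis) of the 9 hyaluronan genes in 3 comparisons, with 95% intervals from the edgeR fit as lines; filled points have an adjusted p under 0.05. Has2 and Cemip have the largest values against control, 4.94 and 5.72 in WT, and in the comparison of genotypes every point is open.

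Between CB1R KO and WT bleomycin lungs, 0 of 9 members passed the edgeR test, where 0.979% of all genes were called in either direction. Has2, Cemip and Has1 had the largest differences, each lower in CB1R KO lungs with an interval that did not include 0. For each, 3 of 4 CB1R KO libraries were below every WT library, and the share of all genes with this pattern was not computed. At an unadjusted p under 0.05, these 3 of 9 members were lower, beside 9.08% of all genes. Has2 differed by -1.14 on the log2 scale (95% interval -1.83 to -0.44, adjusted p = 0.104 in the edgeR fit). Cemip differed by -1.20 (-2.09 to -0.31, adjusted p = 0.164 in the edgeR fit) and Has1 by -0.61 (-1.11 to -0.12, adjusted p = 0.197 in the edgeR fit). Among libraries with lower-case labels the differences were -1.19 for Has2, -1.42 for Cemip and -0.65 for Has1, with adjusted p-values of 0.313, 0.328 and 0.419 in the edgeR fit.

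For Has2 and Cemip the call depended on CB1R KO replicate 10. Without it, Has2 differed by -1.67 (SE 0.25, adjusted p = 0.00359 in the edgeR fit) and Cemip by -1.83 (SE 0.36, adjusted p = 0.0148 in the edgeR fit). With all libraries, DESeq2 called Has2 (log2 fold change -1.14, SE 0.34, adjusted p = 0.0238) and no other member. Calls over all genes rose under these settings too, from 150 in the main fit to 653 without replicate 10 and up to 644 with DESeq2. Replicate 10 had 4.78 TPM of Has2 and 6.85 TPM of Cemip, against 1.21 and 1.18 TPM in replicate 8. The summed level of the 8 macrophage markers was 1560 TPM in replicate 10 and 1170, 965 and 1220 TPM in replicates 8, 9 and 11, whereas summed fibroblast markers were at 635 TPM in replicate 10 and 767, 774 and 628 TPM in those 3. Replicate 10 also stood apart in type II cell markers, at 33200 TPM against 43600, 47600 and 46600 TPM, in type I cell markers, at 3660 TPM against 4980, 4690 and 4720 TPM, and in lymphatic endothelial markers, at 907 TPM against 626, 603 and 716 TPM. In WT bleomycin lungs these 3 lists were at 25100 to 31900, 3560 to 4040 and 709 to 961 TPM. These lists were picked after their values were seen, and other lists differed. T and NK cell markers were at 76.0 TPM in replicate 10 and 65.4, 57.0 and 64.8 TPM in replicates 8, 9 and 11. In WT bleomycin lungs they were at 38.8 to 62.8 TPM. Alveolar macrophage markers were at 1560 TPM in both replicates 9 and 10. The part of these cell types in the spread of Has2 and Cemip was not tested.

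**Figure D4:**
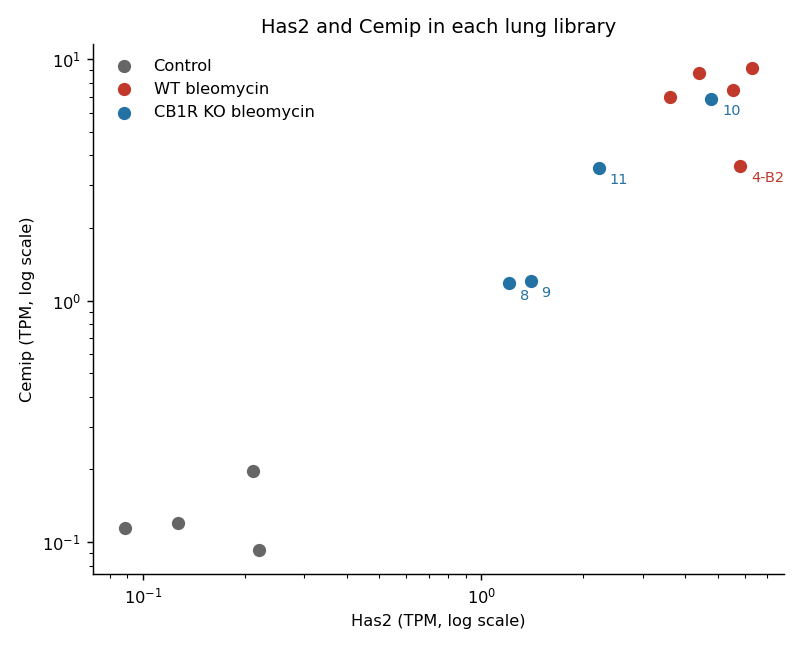
TPM of Cemip (vertical axis) against Has2 (horizontal axis), both on log scales, in each lung library; numbers name the CB1R KO replicates and WT replicate 4-B2. Control libraries lie at the lower left, CB1R KO replicates 8 and 9 are the lowest of the bleomycin libraries in both genes, and replicate 10 lies among WT bleomycin libraries.

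For the other 6 members the intervals of the difference between CB1R KO and WT bleomycin lungs included 0. They were -0.47 to 0.27 for Has3, -0.25 to 0.26 for Cemip2, -0.10 to 0.58 for Hyal1, -0.12 to 0.19 for Hyal2, -0.31 to 0.03 for Cd44 and -0.87 to 0.08 for Tnfaip6, all on the log2 scale. For Cemip2, Hyal2 and Cd44 the data thus bound a difference of genotype within 0.31 in either direction, and for Has3, Hyal1 and Tnfaip6 the interval is wider. The median difference of the 9 members was -0.14, beside 0.00 over all genes tested.

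The genes whose levels relative to control over the 13 libraries were closest to those of Cemip were Chl1, Grem1, Adamts4 and Has2. Likeness was the mean absolute difference of log2 CPM, each gene taken relative to its control mean, and was 0.56, 0.56, 0.58 and 0.66. Has2 was thus number 4 of all genes tested, whereas Has1 ranked 583 and Tnfaip6 603. This measure depends on the size of the rise, so genes that rose less, such as Has1 and Tnfaip6, can rank low even where their libraries are ordered alike. Chl1 was 5.45 above its control mean in WT and 3.83 above it in CB1R KO bleomycin lungs on the log2 CPM scale. Grem1, which encodes a secreted BMP antagonist, was 4.54 and 3.79 above, Adamts4, which encodes a protease of versican and aggrecan, 4.82 and 3.55, and Has2 4.71 and 3.40.

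The rest of the pathway was read from 6 lists of 41 genes, of which 40 were in the tables and 30 passed the count filter. In WT bleomycin against control, 17 of the 30 were higher and 4 lower, and in CB1R KO bleomycin against control 14 were higher and 1 lower. Of all genes tested, 25.0% were higher and 23.9% lower in the first comparison and 19.0% and 16.3% in the second. The median log2 fold changes were 0.32 and 0.37, beside -0.01 over all genes in both. Between CB1R KO and WT bleomycin lungs 0 of 30 were called, where 0.979% of all genes were, and 3 of 30 had an unadjusted p under 0.05, where 17.0% of all genes did.

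Of the 7 genes that supply the UDP-sugars, 5 rose in WT bleomycin lungs, beside 25.0% of all genes, and 4 in CB1R KO bleomycin lungs, beside 19.0%. The median log2 fold change of the 7 was 0.30 in WT and 0.31 in CB1R KO bleomycin lungs. Ugdh, which makes UDP-glucuronic acid, and Gfpt1, the entry enzyme of the hexosamine pathway, were among those that rose in both, at 0.30 and 0.29 in WT. Of the lysosomal glycosidases and other hyaluronidases, 3 of 4 tested rose in both groups, beside 25.0% of all genes in WT and 19.0% in CB1R KO bleomycin lungs. Hexa, which encodes a lysosomal glycosidase subunit, rose by 0.87 (SE 0.07) in WT bleomycin lungs, and Gusb, the gene of beta-glucuronidase, by 1.04 (SE 0.11). Both take part in the breakdown of glycans in lysosomes, and they moved opposite to Hyal1.

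Of 7 hyaluronan receptors, 5 rose in WT and 4 in CB1R KO bleomycin lungs, beside 25.0% and 19.0% of all genes. Tlr2, an innate immune receptor, rose by 1.07 (SE 0.12) in WT bleomycin lungs, from 16.5 ± 0.714 TPM (SD, n = 4) to 35.5 ± 5.53 TPM (SD, n = 5). Hmmr, which is also a mitotic spindle gene, and Stab2, a clearance receptor, were singled out after their values were seen. They rose by 1.75 (SE 0.24) and 1.78 (SE 0.38). Stab2 was low, at a mean of 0.311 TPM in control lungs (11.5 to 43.75 estimated counts) and 1.1 TPM in WT bleomycin lungs. Lyve1, the receptor of lymphatic endothelium, had a log2 fold change of 0.02 (95% interval -0.65 to 0.68). In WT bleomycin lungs it was at 98.5, 108 and 103 TPM with lower-case labels and at 214 and 230 TPM with capitals. Control lungs had 78.0, 124 and 190 TPM with lower-case labels and 191 TPM with capitals. Lymphatic endothelial markers as a list, which contains Lyve1 itself, summed to 420 to 496 TPM in control, 709 to 961 TPM in WT bleomycin and 603 to 907 TPM in CB1R KO bleomycin lungs, with none at 0.

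Among link proteins and lecticans, which anchor hyaluronan in matrix, Vcan, the gene of versican, rose by 2.52 (SE 0.19, adjusted p = 1.94e-07 in the edgeR fit) in WT bleomycin lungs, from 3.02 ± 0.663 TPM (SD, n = 4) to 14.9 ± 2.49 TPM (SD, n = 5). In CB1R KO bleomycin lungs Vcan was at 10.5 ± 1.67 TPM (SD, n = 4). Bcan, the gene of brevican, fell by 1.53 (SE 0.32) in WT bleomycin lungs, and 2 of 4 tested genes of this list rose in each bleomycin group, beside 25.0% and 19.0% of all genes.

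Of the 6 tested genes of inter-alpha-inhibitor and cross-linking proteins, 2 rose and 3 fell in WT bleomycin lungs, and 1 rose and 1 fell in CB1R KO bleomycin lungs. Of all genes, 25.0% rose and 23.9% fell in WT and 19.0% and 16.3% in CB1R KO bleomycin lungs, so that 2 of 6 higher in WT and 1 of 6 in each direction in CB1R KO lungs were near the share of all genes. Ptx3, which cross-links hyaluronan with TSG-6 and was singled out after its values were seen, rose by 3.83 (SE 0.51) in WT and 3.26 (SE 0.52) in CB1R KO bleomycin lungs. Its TPM in CB1R KO replicates 8, 9, 10 and 11 was 3.23, 2.58, 13.7 and 12.6, against 10.0 to 12.7 in WT bleomycin lungs, so that replicates 8 and 9 were low as for Has2 and Cemip. The heavy chain family did not move in 1 direction. Itih1, Itih4 and Itih5 fell by 0.89 (SE 0.21), 0.64 (SE 0.18) and 0.49 (SE 0.14) in WT bleomycin lungs. Itih3, named after its values were seen, rose by 1.55 (SE 0.4, adjusted p = 0.00501 in the edgeR fit). Itih2 did not pass the test, at 0.19 (SE 0.29). Of the other hyaluronan-binding proteins, 0 of 2 tested passed in either group against control.

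In the comparison of genotypes, the 3 pathway genes with the lowest p were Bcan, Itih1 and Vcan, at log2 differences of 0.98 (SE 0.32), 0.55 (SE 0.21) and -0.40 (SE 0.16), and with adjusted p-values of 0.148, 0.204 and 0.236 in the edgeR fit. For each, the mean in CB1R KO lungs lay between those of control and WT bleomycin lungs. These genes were picked by their difference from the same WT bleomycin libraries, and the share of all genes with this pattern was not computed. The position is therefore no added support for a difference of genotype. Without CB1R KO replicate 10, Bcan, Itih3 and Vcan passed the test, at 1.22, -1.14 and -0.58. Replicate 10 was the lowest CB1R KO library for Bcan and the highest for Itih3 and Vcan, so leaving it out enlarges these differences by construction. Calls over all genes rose as well in that fit, to 653 from 150 in the main fit.

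**Figure D5:**
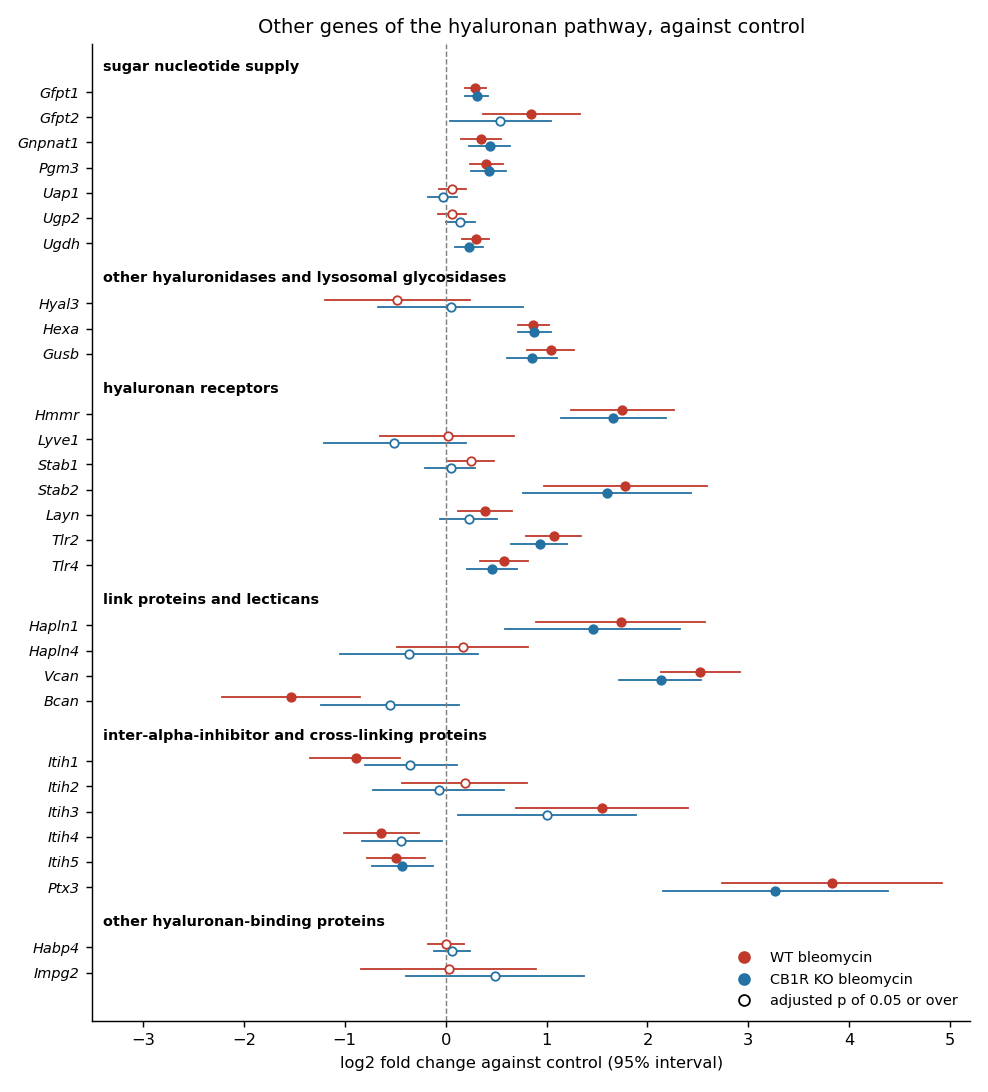
Log2 fold change against control (horizontal axis) of the other pathway genes tested (1 of 30 is left out), by list (vertical axis), in WT (red) and CB1R KO (blue) bleomycin lungs, with 95% intervals from the edgeR fit; open points have an adjusted p of 0.05 or over. Both colours use the same 4 control libraries, and Ptx3 and Vcan have the largest values, 3.83 and 2.52 in WT.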

How the data were processed

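RNA of 13 lungs was prepared with the NEBNext Ultra II kit after poly(A) selection and read from both ends on a HiSeq instrument. The authors quantified reads with kallisto on the Ensembl mouse reference (GRCm39, per the submitters' processing notes; the kallisto version is not given in the sources used here) and deposited estimated counts and TPM summed per gene over its protein-coding transcripts, and tested rounded counts with DESeq2. The deposited estimated counts are not normalized, and TPM is scaled by transcript length and library total. The tables of single samples hold the same values as the series tables for 13 of 13 samples, and 1 column of the TPM table matched no sample and was not used.

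Estimated counts were rounded, filtered with filterByExpr and scaled by TMM, and 15315 genes were fitted in 3 groups over 13 libraries in edgeR 4.0.16 (R 4.3.3) by its quasi-likelihood method, with Benjamini-Hochberg adjustment over all genes tested and a threshold of 0.05. Every adjusted p is from this fit unless another tool is named. The SE is the log2 fold change divided by the root of F. A prior count of 2 entered log2 CPM. The median SE was 0.114 for WT bleomycin against control, 0.113 for CB1R KO against WT and 0.119 for CB1R KO bleomycin against control. The procedure was tested on simulated data. No 2 libraries of a group agreed within sampling noise. WT bleomycin replicates 4 and 4-B2 share a number in their labels, and the study's table of lung function lists them as separate animals, as it does every other library.

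The members and all lists were chosen with earlier results of these data known. Named genes were all members, Cnr1, the 5 other pathway genes per direction with the lowest p among those called in WT bleomycin against control (all 4 that fell), the 3 with the lowest p between genotypes, and the 4 most like Cemip; others are marked as chosen after their values were seen. Of the genes this rule names, 1 is not reported here. Shared sequence was computed from GENCODE M21 transcripts (both strands). Alternatives used DESeq2 1.42.0 and limma 3.58.1; tables and plots used Python 3.11.15, pandas 2.3.3, numpy 2.4.6 and matplotlib 3.10.9.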

Additional observations from a re-analysis of the deposited data

Results flagged for a closer look

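Of the 27 combinations of a member and a group, 2 held a library that stood apart from the others by Dixon's gap ratio on log2 CPM, where chance gives about 1 in 20. Cemip in WT bleomycin replicate 4-B2 was the lowest of its group, with a gap of 0.727 of the group's range and 3.62 TPM, against 6.94 to 9.18 TPM in the other 4 libraries. Cemip2 in control replicate 3 was the lowest of its group, with a gap of 0.887 of the range and 37.5 TPM, against 56.0 to 61.0 TPM in the other 3 controls.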

How the results depend on the processing

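The 9 members were refitted under 25 alternatives in 3 comparisons, which gave 669 values. Of these, 643 kept their direction and their side of the threshold, 7 passed it newly and 19 changed sign, all 19 for Cemip2, Has3 or Hyal2 in comparisons where they were not called. No member called against control lost its call where it was tested. With at least 10 counts in every library Has2 and Cemip were not tested, which left 4 members called. Cemip2 in CB1R KO bleomycin against control was 0.02 with label style as a term and among lower-case labels, and 0.09 with limma at either pseudocount (0.1 and 1), and ranged from -0.16 to 0.05 with single libraries left out. In WT bleomycin against control it was 0.04 with limma at either pseudocount and -0.17 to 0.04 with libraries left out, and between genotypes -0.03 to 0.04. With libraries left out, Has3 in CB1R KO bleomycin against control ranged from -0.05 to 0.22 and Hyal2 between genotypes from 0.00 to 0.07. Between genotypes, 1 member was called with DESeq2 on 13 libraries or on the 2 groups, where the main count was 0, and 0 to 2 with single libraries left out, and 0 to 3 other pathway genes. Without control replicate 3, 8 members were called in WT bleomycin against control. Over all genes, the 150 calls between genotypes became 640 and 644 with DESeq2, 88 with edgeR on 2 groups, 41 with label style as a term, 93 with limma at a pseudocount of 0.1, 6 among lower-case labels and between 1 (without CB1R KO replicate 9) and 653 (without CB1R KO replicate 10). The cause was not tested. No paired analysis was possible because the groups share no replicate numbers in their labels. At 4 to 16.36 counts per control library, the fold changes of Has2 and Cemip have the widest errors of the members and shrink with a larger pseudocount.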

Other observations

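The remaining marker lists are given as summed TPM in control, WT bleomycin and CB1R KO bleomycin lungs, in that order. Markers of type II cells were at 37900 to 44000, 25100 to 31900 and 33200 to 47600 TPM, with 6 of 8 lower in WT bleomycin than in control lungs and 3 of 8 higher in CB1R KO than in WT bleomycin lungs by the edgeR test, and those of type I cells were at 4470 to 4790, 3560 to 4040 and 3660 to 4980 TPM. Cardiac muscle markers were at 722 to 1890, 141 to 540 and 512 to 941 TPM, with 8 of 8 lower in WT bleomycin than in control lungs, and adipocyte markers at 71.0 to 265, 25.1 to 149 and 64.7 to 269 TPM. Alveolar macrophage markers were at 1000 to 2300, 934 to 1440 and 916 to 1560 TPM and neutrophil markers at 318 to 1720, 212 to 420 and 250 to 545 TPM. T and NK cell markers were at 60.2 to 93.9, 38.8 to 62.8 and 57.0 to 76.0 TPM and B and plasma cell markers at 184 to 418, 104 to 434 and 191 to 403 TPM.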
